A study of Mus musculus with 20 samples.

Results

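The peripheral subunits b, d, g, i and j of the translation initiation factor eIF3 are encoded in mouse by Eif3b, Eif3d, Eif3g, Eif3i and the near-identical pair Eif3j1 and Eif3j2. They were taken by name as the eIF3 subunit rows of the deposited table that lie outside the 8 subunits of the eIF3 octamer, and make up 6 of 14 eIF3 rows and 6 of 38784 rows in all. RNA and ribosome footprints, the stretches of mRNA covered by a ribosome, were profiled in liver from 10 mice of the FVB/N strain, 6 to 8 weeks old when injected. Every animal received siRNA in lipid nanoparticles through a tail vein at 0.5 mg/kg, with 1 injection per 5 days. The control siRNA was a scrambled luciferase sequence and the other was directed against Eif3m, which codes for a subunit of the octamer. The 8 groups were RNA and footprints from control and Eif3m livers, with 3 animals a group at day 9 and 2 animals a group at day 13. Whole ground liver was used, so all its cell types contributed, and in such bulk samples fewer cells of a type cannot be told apart from less RNA per cell. RNA libraries were made by KAPA mRNA capture at day 9 and by NeoPrep at day 13, so that the day and the RNA kit cannot be told apart, while ART-seq was used for footprints at both times.

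eIF3 is the largest initiation factor and binds the small ribosomal subunit, where it helps to recruit mRNA and to scan for the start codon. Its octamer, which includes the m subunit, forms the structural core, and the peripheral subunits attach to it on arms that reach around the small subunit. Subunit b is a scaffold with a WD40 propeller that holds g, an RNA-binding protein, and i, a second WD40 propeller. Subunit d sits near the mRNA exit and can bind the cap of selected mRNAs, and j is a loosely bound subunit that reaches into the mRNA channel near the decoding centre.

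The 2 rows for subunit j cannot be read apart in these data. In footprints, Eif3j1 and Eif3j2 held the same count in 10 of 10 libraries. In day 9 RNA they differed by -0.66% to -0.14% of their sum (Eif3j1 minus Eif3j2) in 6 libraries. In day 13 RNA the difference was 6.79% to 7.23% in 4 libraries, Eif3j1 being the higher row in each. The 2 rows were therefore summed into 1, written Eif3j1+Eif3j2, which leaves 5 units. Fitted as separate rows, the pair gave RNA log2 changes of 0.50 and 0.49 at day 9 and of 0.88 and 0.88 at day 13. Other genes overlap some members in the RefSeq gene table, namely the microRNA gene Mir7038 with Eif3b, Spg11 with Eif3j1 and Gm3650 with Eif3j2, and whether reads were counted by strand is not given in the sources used here.

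The promoters were searched for motifs shared by genes that code for parts of a single complex. RefSeq sequences (GRCm38.p6) were matched for 4 of 6 members, and the 100 bases ahead of the start are given below, 5′ to 3′ in the direction of the gene, with motif matches in capitals. They lie at chr5:140419205-140419304 on the plus strand (Eif3b), chr15:77970825-77970924 on the minus strand (Eif3d), chr9:20898591-20898690 on the minus strand (Eif3g) and chr2:122028480-122028579 on the plus strand (Eif3j1).
Eif3b: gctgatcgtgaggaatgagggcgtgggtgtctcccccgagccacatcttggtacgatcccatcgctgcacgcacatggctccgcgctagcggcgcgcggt
Eif3d: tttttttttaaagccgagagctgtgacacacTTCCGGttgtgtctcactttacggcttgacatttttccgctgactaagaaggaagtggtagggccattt
Eif3g: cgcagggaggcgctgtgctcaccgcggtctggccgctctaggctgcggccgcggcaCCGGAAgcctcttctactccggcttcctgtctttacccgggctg
Eif3j1: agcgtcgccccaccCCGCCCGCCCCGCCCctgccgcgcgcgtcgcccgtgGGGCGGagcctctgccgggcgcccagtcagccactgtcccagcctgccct
The GC content of these windows was 66.0% for Eif3b, 44.0% for Eif3d, 70.0% for Eif3g and 82.0% for Eif3j1. Over the 250 bases ahead of the start and on both strands, the ETS core CCGGAA (reverse TTCCGG) was found once in Eif3d, 69 bases before the start, and once in Eif3g, 44 bases before it. This core is present in 12.0% of 32851 promoters of the same length. The GC box GGGCGG (reverse CCGCCC) was found once in Eif3d, 233 bases before the start and outside the printed window, and 5 times in Eif3j1, 4 of them printed and some overlapping, against 32.7% of all promoters with a match. The E-box CACGTG, present in 6.02% of promoters, was found in 0 of 4. A C at the start followed by 4 bases that are each C or T opens a terminal oligopyrimidine tract. It was found at the annotated start in 2.51% of the 32851 promoter entries and in 0 of 4 here. Whether the annotated starts are those used in these livers was not tested. No motif searched was shared by all 4 windows, and a match is a description of the letters only.

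Total counts ran from 19.8 M to 39.0 M in 9 of 10 RNA libraries and came to 4.96 M in day 13 Eif3m replicate 2. Footprint totals ran from 4.50 M to 7.69 M at day 9 and from 1.64 M to 6.52 M at day 13. Levels are given as CPM, counts per 1000000 counts (1 M) after TMM scaling, and changes as log2 of Eif3m over control siRNA with their standard error (SE). Since transcript lengths were not used, CPM values are compared between groups and never between genes. The targeted gene Eif3m was lower in all Eif3m siRNA libraries than in all controls of its day and assay, with log2 changes of -3.27 and -4.01 in RNA and -3.61 and -4.58 in footprints at days 9 and 13. Hepatocyte markers, summed over the 7 of 8 present in the table, had lower totals with Eif3m siRNA, at 108452 to 119094 CPM against 146829 to 154307 in day 9 RNA, 148932 to 208660 against 259838 to 299631 in day 13 RNA, 115834 to 137954 against 176071 to 211145 in day 9 footprints and 126394 to 157119 against 247108 to 249667 in day 13 footprints. Macrophage markers (6 of 6) were also lower, at 138 to 154 CPM against 244 to 278 in day 9 RNA, 51.1 to 63.7 against 163 to 225 in day 13 RNA, 211 to 242 against 276 to 320 in day 9 footprints and 108 to 158 against 249 to 286 in day 13 footprints. Erythroid globin genes (4 of 4) were at 1536 to 4800 CPM in control and 647 to 1137 CPM in Eif3m footprints of day 13, and cholangiocyte markers (5 of 5) at 34.9 to 38.7 and 59.5 to 78.1 CPM. In day 13 RNA, totals were lower with Eif3m siRNA for endothelial markers (5 of 5, 115 to 117 against 170 to 191 CPM), stellate markers (6 of 6, 280 to 300.0 against 414 to 416 CPM), neutrophil markers (4 of 4, 8.52 to 8.72 against 16.4 to 18.9 CPM) and globin genes (127 to 133 against 316 to 1189 CPM). In footprints, stellate markers were higher with Eif3m siRNA at day 9 (511 to 600.03 against 436 to 474 CPM) and lower at day 13 (502 to 574 against 644 to 666 CPM), as were endothelial markers at day 13 (399 to 464 against 469 to 483 CPM). The other totals of these lists overlapped between the siRNA groups. The part of these markers in the results that follow was not tested.

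**Figure D1:**
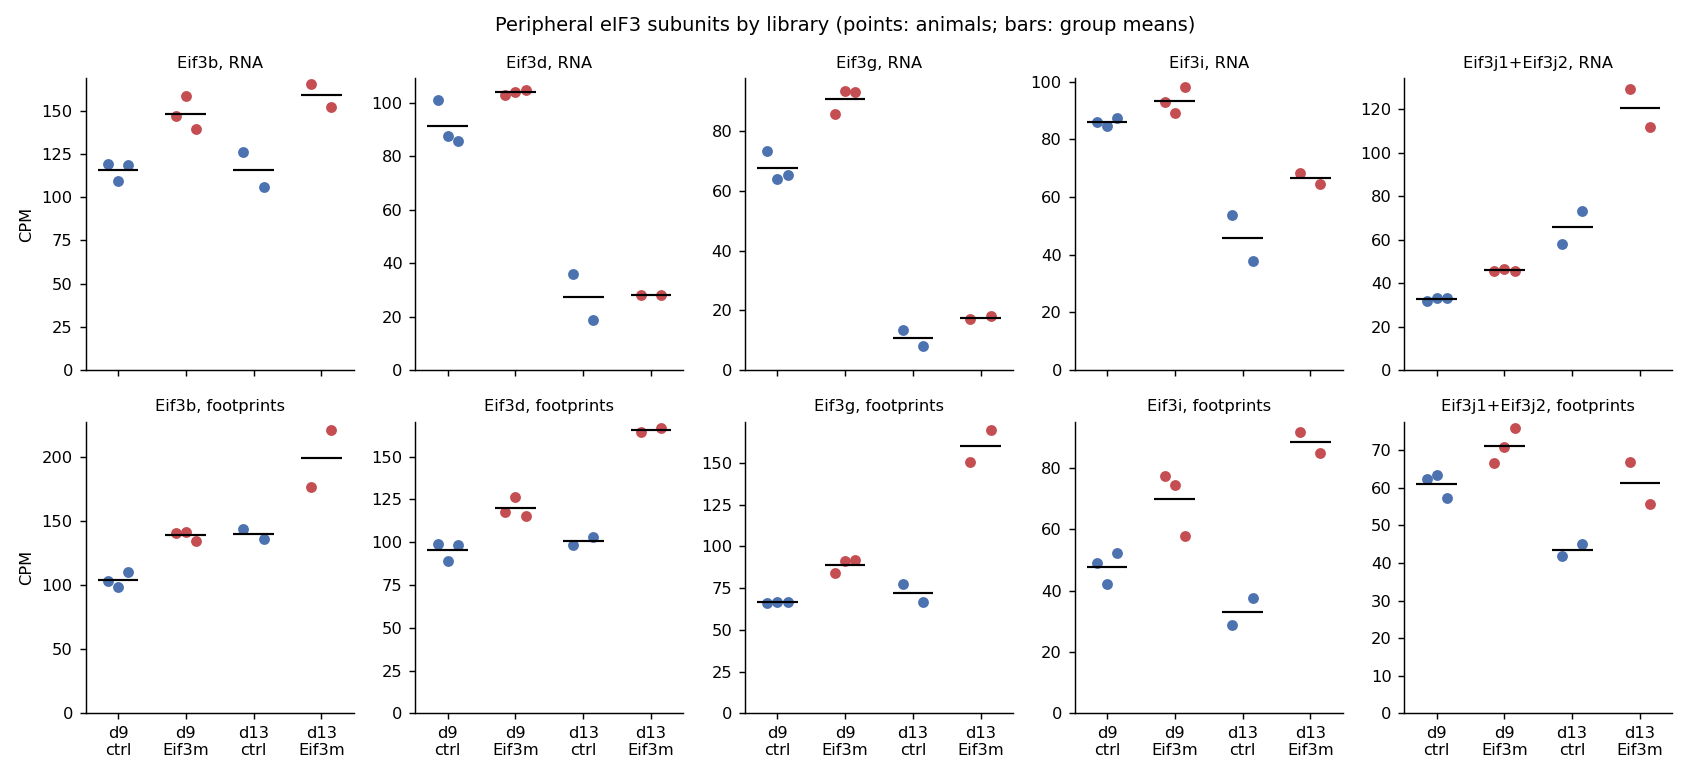
CPM of each peripheral subunit gene in every library, RNA in the upper row and footprints in the lower, with blue points for control and red points for Eif3m siRNA animals and bars for group means. The Eif3m points lie above the control points of the same day in 19 of the 20 day and gene pairs, the exception being Eif3d RNA at day 13. The pairs are 5 units at 2 days in 2 assays of the same animals, so they are not separate observations. Of all genes, 18.9% and 18.1% in RNA and 15.6% and 28.3% in footprints have all Eif3m libraries above all controls at days 9 and 13.

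The first question was how the relative footprint level of these messages changed when Eif3m was depleted. CPM values are relative to the other genes of a library, so a change in total footprints or total RNA per liver would not show. In footprints the peripheral subunit genes were higher with Eif3m siRNA at both times, by a median log2 change of 0.41 over the 5 units at day 9 (all genes tested, 0.02) and of 0.71 at day 13 (all genes, 0.02). At day 9, 3 of 5 units passed edgeR's quasi-likelihood test with a p below 0.05 after Benjamini-Hochberg adjustment, all 3 higher, where 14.7% of all genes tested were called and 6.84% were called higher. At day 13, 4 of 5 passed, all higher, against a background of 12.4% called and 6.13% called higher. The footprint groups did not overlap for 5 of 5 units at day 9 (15.6% of all genes had all Eif3m libraries above all controls) and for 5 of 5 at day 13 (28.3%).

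Within the b-g-i module, the scaffold Eif3b had 104, 98.8 and 110 CPM of footprints in the day 9 controls and 141, 142 and 134 CPM with Eif3m siRNA. Its groups were separate and its log2 change was 0.41 (SE 0.12, adjusted p = 0.024, edgeR). At day 13 it had 144 and 136 CPM in controls and 177 and 221 CPM with Eif3m siRNA, a log2 change of 0.52 (SE 0.15, adjusted p = 0.031, edgeR). Both calls depended on single libraries. With 1 library left out, the change itself stayed between 0.38 and 0.46 at day 9 and between 0.35 and 0.67 at day 13. The day 9 call was lost without control replicate 1 (adjusted p = 0.073) or control replicate 2 (adjusted p = 0.11), and the day 13 call without control replicate 1 (adjusted p = 0.12), control replicate 2 (adjusted p = 0.19) or Eif3m replicate 2, when the change was 0.35 (adjusted p = 0.37).

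Eif3i, the small WD40 partner of Eif3b, showed the largest footprint change of the 5 units at each time. At day 9 it had 49.0, 42.2 and 52.4 CPM in controls and 77.5, 74.4 and 57.9 CPM with Eif3m siRNA. The third Eif3m animal lay nearest the controls without reaching them, and the log2 change was 0.55 (SE 0.14, adjusted p = 0.013, edgeR). Without day 9 control replicate 2 this call was lost (0.46, adjusted p = 0.085). At day 13 Eif3i had 28.7 and 37.6 CPM in controls and 91.9 and 84.9 CPM with Eif3m siRNA, so that both treated animals stood well above both controls. The rise was 2.64-fold, a log2 change of 1.40 (SE 0.20, adjusted p = 1.1e-04, edgeR), and it passed in 17 of 17 alternative analyses, between 1.24 and 1.72. The control values rest on 49.5 and 70.5 deposited counts, against 160.5 and 621.2 counts in the treated animals.

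Eif3g, the RNA-binding member of the module, had 66.3, 66.9 and 66.9 CPM of footprints in day 9 controls and 84.1, 91.4 and 91.8 CPM with Eif3m siRNA. The controls were nearly equal and all treated animals lay above them, with a log2 change of 0.42 (SE 0.12, adjusted p = 0.023, edgeR). That call was lost without any of control replicates 1, 2 and 3 or Eif3m replicate 3, with adjusted p between 0.057 and 0.075, and without the filter on low counts (adjusted p = 0.060), as was that of Eif3b (adjusted p = 0.056). At day 13 Eif3g had 77.8 and 66.8 CPM in controls and 151 and 169 CPM with Eif3m siRNA. This rise was 2.22-fold, a log2 change of 1.15 (SE 0.16, adjusted p = 6.8e-05, edgeR), and it was kept in 17 of 17 alternatives, between 1.04 and 1.47.

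Eif3d, the cap-binding subunit, had 99.0, 89.3 and 98.2 CPM of footprints in day 9 controls and 118, 127 and 115 CPM with Eif3m siRNA. The groups were separate, but the log2 change of 0.33 (SE 0.11) did not pass (adjusted p = 0.060, edgeR). It did pass when genes under a mean of 5 CPM were left out (adjusted p = 0.034) and without Eif3m replicate 1 (adjusted p = 0.047). It also passed with library totals alone (adjusted p = 0.0024), a scaling that by its construction adds 0.23 to day 9 footprint changes. At day 13 Eif3d had 98.6 and 103 CPM in controls against 164 and 166 CPM with Eif3m siRNA. The animals within each group were close to each other, and the rise of 0.71 on the log2 scale (SE 0.15, adjusted p = 0.0031, edgeR) was kept in 17 of 17 alternatives, between 0.68 and 1.03.

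Eif3j1+Eif3j2, the loosely bound subunit, was the unit whose footprints did not pass at either time. It had 62.3, 63.3 and 57.3 CPM in day 9 controls and 66.6, 70.9 and 75.9 CPM with Eif3m siRNA, a log2 change of 0.22 (SE 0.13, adjusted p = 0.25, edgeR). At day 13 it had 41.8 and 45.1 CPM in controls and 66.8 and 55.8 CPM with Eif3m siRNA, a change of 0.48 (SE 0.18, adjusted p = 0.088, edgeR). The treated animals lay above the controls at each time. Scaling by library totals alone made both changes pass (adjusted p = 0.016 and 0.0036, edgeR). By its construction that scaling adds 0.23 and 0.32 to footprint log2 changes at days 9 and 13, and it raised all 5 units.

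The second question was how the relative RNA level of each message changed. Peripheral subunit RNA was also higher with Eif3m siRNA, by a median log2 change of 0.36 at day 9 (all genes, -0.00) and of 0.54 at day 13 (all genes, -0.16), but the unit that passed at both times was the j pair. At day 9, 1 of 5 units passed, higher, where 5.67% of all genes were called and 2.48% were called higher. All 5 had separate groups at day 9, as did 18.9% of all genes with the Eif3m libraries higher. At day 13, 3 of 5 passed, all higher, against a background of 16.0% called and 6.09% called higher, and 4 of 5 had separate groups (18.1% of all genes).

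RNA of Eif3j1+Eif3j2 was at 31.7, 33.1 and 33.1 CPM in day 9 controls and at 45.8, 46.7 and 45.6 CPM with Eif3m siRNA. These tight groups gave a log2 change of 0.49 (SE 0.12, adjusted p = 0.035, edgeR), but leaving out whichever of the 6 libraries of day 9 ended the call (changes of 0.46 to 0.51, adjusted p = 0.098 to 0.13). At day 13 the values were 58.0 and 73.2 CPM in controls and 129 and 112 CPM with Eif3m siRNA. That rise of 1.84-fold, a log2 change of 0.88 (SE 0.15, adjusted p = 0.0027, edgeR), was kept in 19 of 19 alternatives, between 0.72 and 1.09.

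In the b-g-i module, Eif3b RNA was at 119, 109 and 119 CPM in day 9 controls and at 147, 159 and 140 CPM with Eif3m siRNA, a log2 change of 0.36 (SE 0.12) that did not pass (adjusted p = 0.11, edgeR). At day 13 it was at 126 and 106 CPM against 166 and 152 CPM, a change of 0.46 (SE 0.15, adjusted p = 0.055, edgeR). The treated animals lay above the controls both times. The day 9 value passed when the days were fitted separately (adjusted p = 0.013), with library totals, with DESeq2, in genes of at least 5 CPM on average, and without day 13 control replicate 1 (adjusted p = 0.033) or 2 (adjusted p = 0.032). The day 13 value passed without day 13 control replicate 1 (adjusted p = 0.023), with each library of day 9 left out in turn (adjusted p = 0.033 to 0.044), and with DESeq2 size factors, library totals, the 5 CPM minimum or DESeq2.

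Eif3g RNA was at 73.4, 64.1 and 65.3 CPM in day 9 controls and at 85.9, 93.4 and 93.1 CPM with Eif3m siRNA, a change of 0.43 (SE 0.16, adjusted p = 0.14, edgeR). It passed when day 9 was fitted alone (adjusted p = 0.0055) and without day 13 control replicate 1 or 2 (adjusted p = 0.012 for each). At day 13 its RNA was at 13.5 and 8.02 CPM in controls and at 17.0 and 18.0 CPM with Eif3m siRNA, and the change of 0.69 passed (SE 0.21, adjusted p = 0.044, edgeR). Day 13 control replicate 2 was the low sample. The change was 0.35 without it (adjusted p = 0.15) and 1.11 without control replicate 1, and the call was also lost without Eif3m replicate 1 (adjusted p = 0.13) or 2 (adjusted p = 0.15) and with day 13 fitted alone (adjusted p = 0.15).

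Eif3i RNA was at 85.9, 84.6 and 87.3 CPM in day 9 controls and at 92.9, 89.0 and 98.1 CPM with Eif3m siRNA, a small difference of 0.12 (SE 0.13, adjusted p = 0.68, edgeR). At day 13 it was at 53.8 and 37.8 CPM in controls and at 68.4 and 64.4 CPM with Eif3m siRNA, a rise of 0.54 (SE 0.17, adjusted p = 0.047, edgeR). Control replicate 2 was again the low sample, with a change of 0.29 without it (adjusted p = 0.16) and 0.81 without control replicate 1. Without Eif3m replicate 1 (adjusted p = 0.17) or 2 (adjusted p = 0.11), without the filter on low counts (adjusted p = 0.064) or with day 13 fitted alone (adjusted p = 0.13), the call was lost.

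Eif3d RNA was at 101, 87.6 and 85.7 CPM in day 9 controls and at 103, 104 and 105 CPM with Eif3m siRNA, a change of 0.19 (SE 0.18, adjusted p = 0.63, edgeR). At day 13 it was at 36.1 and 18.7 CPM in controls and at 28.1 and 28.2 CPM with Eif3m siRNA, with both treated animals between the controls and a change of 0.04 (SE 0.24, adjusted p = 0.95, edgeR). The direction was decided by which control was kept, at -0.37 without control replicate 2 (adjusted p = 0.096) and 0.59 without control replicate 1 (adjusted p = 0.028).

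**Figure D2:**
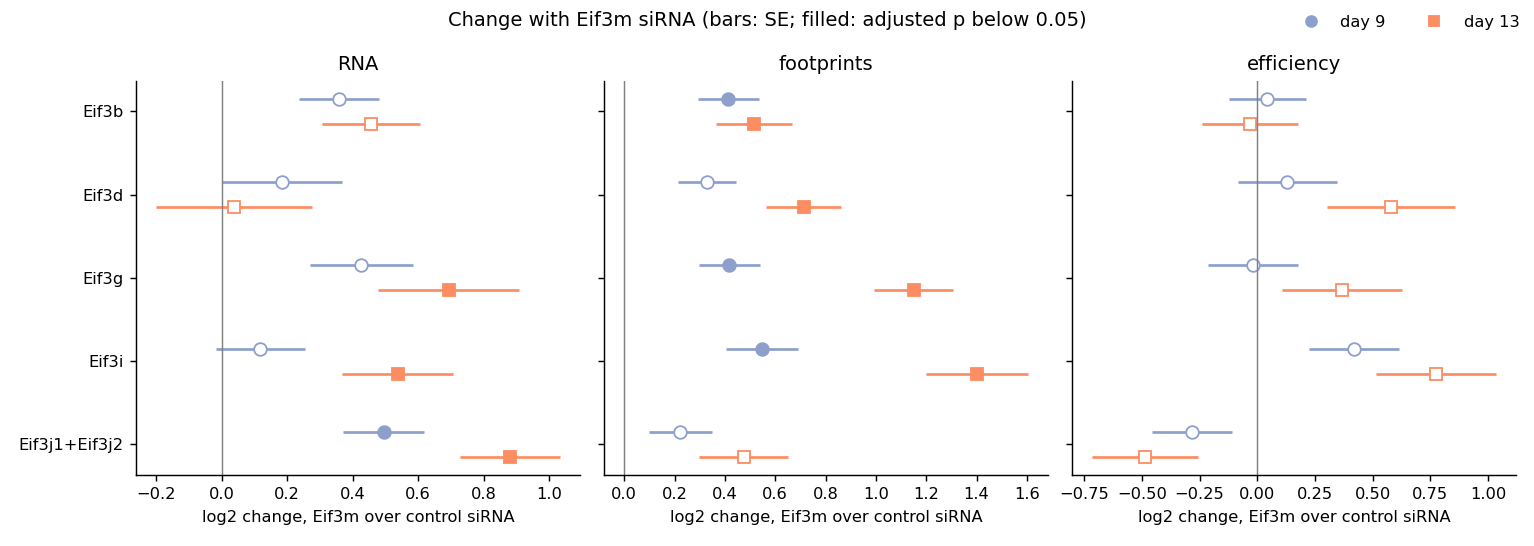
Log2 change with Eif3m siRNA for the 5 units in RNA, footprints and efficiency, with circles for day 9, squares for day 13, bars of 1 SE and filled symbols for an adjusted p below 0.05. Eif3i and Eif3g footprints at day 13 lie farthest to the right, at 1.40 and 1.15, while the j pair has the largest RNA change at each time.

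The changes at the 2 times were compared by a test of their difference. It passed for 0 of 5 units in RNA (1.23% of all genes called) and for 0 of 5 in footprints (0.819%) by edgeR and also by DESeq2. At an unadjusted p below 0.05 the counts were 0 of 5 in RNA (17.8% of all genes) and 2 of 5 in footprints (12.1%). Those 2 were Eif3g, whose footprint change was larger at day 13 by 0.73 (SE 0.20, adjusted p = 0.096, edgeR), and Eif3i, larger by 0.85 (SE 0.25, adjusted p = 0.13, edgeR). Eif3d differed by 0.38 (SE 0.19), Eif3j1+Eif3j2 by 0.25 (SE 0.22) and Eif3b by 0.10 (SE 0.19).

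Translational efficiency, the footprint change minus the RNA change of a gene, asks whether its relative footprint level moved apart from its relative RNA level. It was fitted over both assays with scaling factors from the 14235 genes tested there, which at day 13 places the efficiencies 0.081 to 0.094 below the difference of the separate footprint and RNA changes (for Eif3b, -0.03 against 0.06) and at day 9 about 0.012 below it. By edgeR it passed for 0 of 5 units at day 9 (0% of all genes called) and 0 of 5 at day 13 (0.0211%), and DESeq2 and limma on log ratios also called 0 of 5 each time. At an unadjusted p below 0.05 there was 1 of 5 at day 9 (4.85% of all genes) and 3 of 5 at day 13 (10.0% of all genes). With the animal as a replicate block, pairing the RNA and footprint library of each liver, still 0 of 5 passed, while the count over all genes went from 0 to 8 at day 9 and from 3 to 12 at day 13.

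Eif3i had the largest efficiency difference. Its log2 ratio of footprints to RNA was -0.81, -0.99 and -0.73 in day 9 controls and -0.26, -0.26 and -0.76 with Eif3m siRNA, a change of 0.42 (SE 0.20) with 1 treated animal among the controls. At day 13 the ratio was -0.89 and -0.01 in controls and 0.42 and 0.40 with Eif3m siRNA, a change of 0.77 (SE 0.26, adjusted p = 0.30, edgeR). Eif3d at day 13 had ratios of 1.44 and 2.43 in controls and 2.52 and 2.54 with Eif3m siRNA, a change of 0.58 (SE 0.28, adjusted p = 0.49, edgeR). Leaving out day 13 control replicate 2, whose ratio was the higher of the controls for both genes, gave calls for Eif3d (0.58 became 1.10, adjusted p = 0.016) and Eif3i (0.77 became 1.28, adjusted p = 0.019), while 439 genes in all were then called. Leaving out day 13 control replicate 1 instead gave 0.083 for Eif3d (adjusted p = 1.00) and 0.41 for Eif3i (adjusted p = 0.80), so that the size of both turned on which control was kept.

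The j pair had the opposite sign. Its ratio was 0.96, 0.93 and 0.78 in day 9 controls and 0.54, 0.60 and 0.73 with Eif3m siRNA, and -0.47 and -0.69 in day 13 controls against -0.95 and -0.997 with Eif3m siRNA. The treated animals lay below the controls at each time, with changes of -0.28 (SE 0.17) and -0.49 (SE 0.23, adjusted p = 0.48, edgeR), as did 7.31% and 13.0% of all genes at days 9 and 13. Eif3g had -0.02 (SE 0.20) at day 9 and 0.37 (SE 0.26) at day 13, the latter between 0.13 and 0.68 with 1 animal left out. At day 13 the treated animals lay above the controls for Eif3d, Eif3g and Eif3i (3 of 5 units, against 25.5% of all genes). Over all genes tested, the median efficiency change was 0.03 at day 9 and 0.13 at day 13, when 58.7% of genes had a positive change. For Eif3b the values were 0.04 (SE 0.17) and -0.03 (SE 0.21), and its efficiency had no steady sign across the scalings at day 13.

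**Figure D3:**
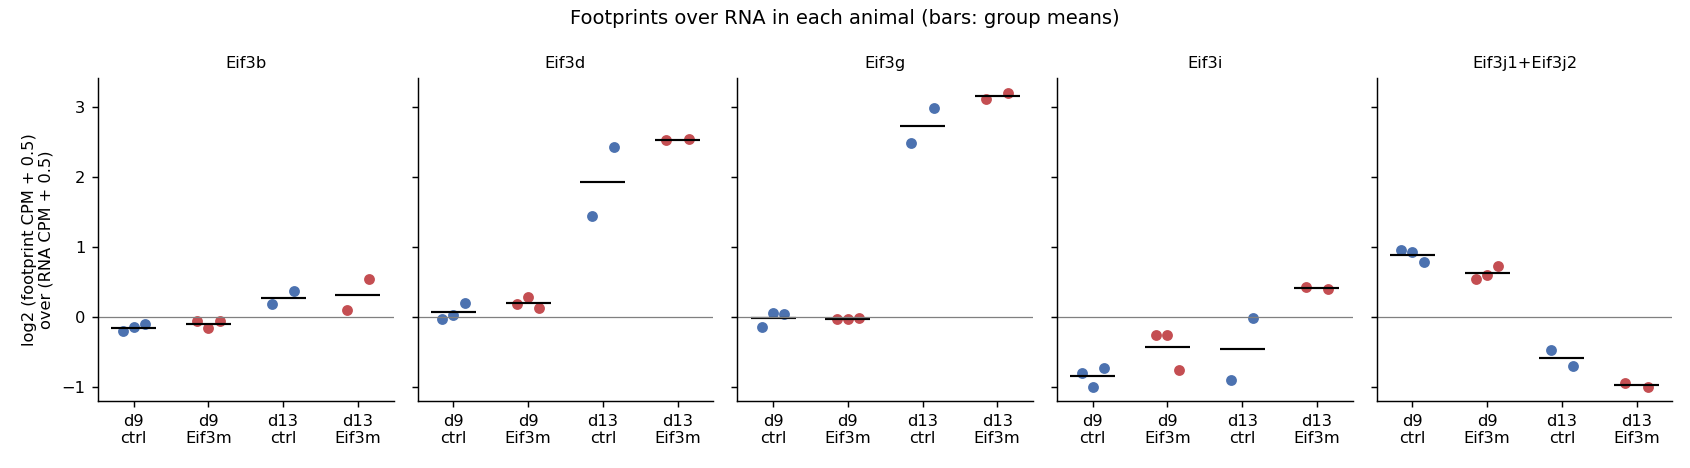
Log2 ratio of footprint CPM to RNA CPM (0.5 added to each) in every animal, with blue points for control, red points for Eif3m siRNA and bars for group means. The treated animals lie above the controls at day 13 for Eif3d, Eif3g and Eif3i and below them at both times for Eif3j1+Eif3j2. Control ratios of Eif3d and Eif3g differ widely between the days, but the RNA kit also changed with the day.

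Control RNA was lower at day 13 than at day 9 for Eif3g, Eif3d and Eif3i, higher for the j pair and level for Eif3b. Footprints differed less in size than RNA for all of these but Eif3b. As log2 ratios of mean CPM, they had the opposite sign to RNA for the j pair (-0.48), Eif3d (0.08) and Eif3g (0.12). Mean control RNA of Eif3g was 6.04 times lower at day 13 than at day 9, a log2 ratio of -2.59, and that of Eif3d was 3.29 times lower, a ratio of -1.72. Eif3i had a ratio of -0.90, Eif3b of 0.00 and Eif3j1+Eif3j2 of 1.00, and the median over 11969 genes was -0.27. Of all genes, 10.7% had a lower ratio than Eif3g and 82.1% a lower ratio than the j pair. The Eif3m siRNA animals gave the same order, at -2.34, -1.87, -0.49, 0.10 and 1.38 for Eif3g, Eif3d, Eif3i, Eif3b and Eif3j1+Eif3j2. These RNA values are a description, since the RNA kit changed with the day.

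Footprints of the control animals, made with 1 kit, were tested between the days. The animals differed between the days, and so did the totals (7.04 M to 7.69 M counts at day 9, 1.97 M to 2.12 M at day 13). The day cannot be told apart from these. In edgeR 0 of 5 units passed (10.4% of all genes called), and 3 of 5 had an unadjusted p below 0.05 (25.5% of all genes). Eif3b was higher at day 13 by 0.43 (adjusted p = 0.055), Eif3i lower at -0.52 (adjusted p = 0.084) and Eif3j1+Eif3j2 lower at -0.49 (adjusted p = 0.059), and these 3 of 5 units had separate groups, as did 47.9% of all genes. Eif3d and Eif3g, whose RNA differed most, had footprint differences of 0.08 and 0.12, with overlapping groups. Of the octamer, Eif3f (1.01), Eif3l (0.65) and Eif3k (0.62) passed, all higher at day 13, and Eif3f and Eif3k also had low RNA ratios of -1.46 and -2.01.

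**Figure D4:**
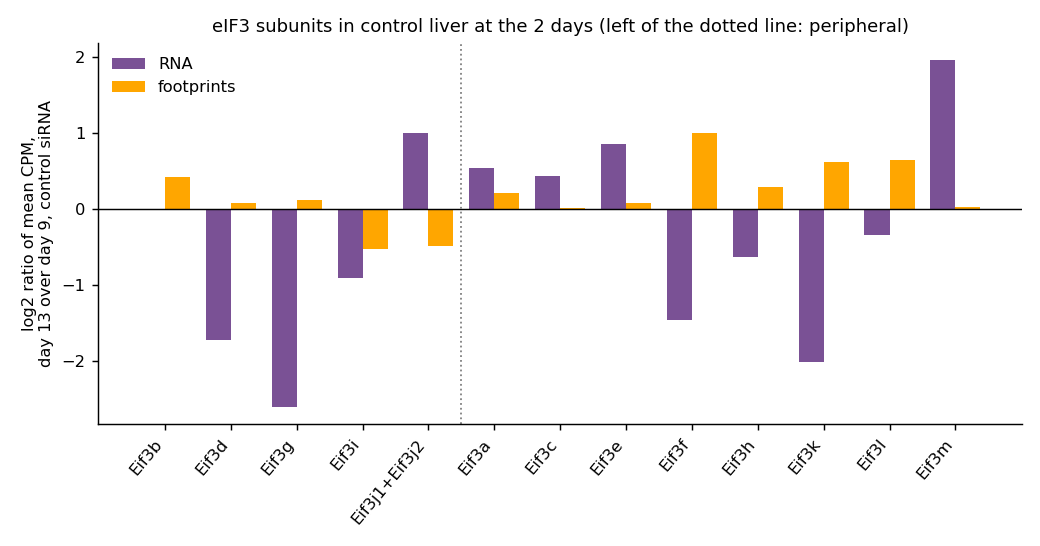
Log2 ratio of mean CPM at day 13 over day 9 in control livers for each eIF3 subunit gene, with purple bars for RNA, orange bars for footprints and a dotted line between the peripheral subunits and the octamer. RNA ratios run from -2.59 for Eif3g to 1.96 for Eif3m, and footprint ratios from -0.52 for Eif3i to 1.00 for Eif3f.

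The members were compared with each other over the 10 libraries of an assay, centred within each day, as a description of libraries that share siRNA groups and scaling. In footprints each unit followed the mean of the other 4 with a Pearson r of 0.99 for Eif3d, 0.95 for Eif3g, 0.94 for Eif3i, 0.88 for Eif3b and 0.85 for Eif3j1+Eif3j2. In RNA these were 0.97 for Eif3g, 0.94 for Eif3b, 0.89 for Eif3i, 0.64 for the j pair and 0.53 for Eif3d. Octamer subunits other than Eif3m had r to the mean of the 5 units from 0.54 (Eif3l) to 0.94 (Eif3f) in RNA. In footprints theirs ran from 0.52 (Eif3e) to 0.93 (Eif3c), so a high r was not particular to the peripheral units. Among 3621 genes of at least 20 CPM, those most like the mean of the 5 units in RNA were Rpl15 (0.994), Slc25a39 (0.992), Eef1a1 (0.983), Rpsa (0.981) and Eef1g (0.979), with a median of -0.21 over all these genes. Rpl15 and Rpsa code for ribosomal proteins, and Eef1a1 and Eef1g for elongation factor subunits. In footprints the most alike were App (0.984), Rpl18 (0.983), Eif4g2 (0.980), Slc25a39 (0.979) and Zpr1 (0.979), with a median of -0.18.

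Of the octamer, 7 subunits other than Eif3m were set beside the peripheral units. In footprints Eif3a, Eif3c and Eif3k rose at day 9 (3 of 7, median 0.48), and Eif3a (0.55, SE 0.15) and Eif3c (0.78, SE 0.16) at day 13 (2 of 7, median 0.41), where the peripheral units had a median of 0.71. In RNA 0 of 7 passed at day 9 by edgeR (median 0.20), with 3 of 7 at an unadjusted p below 0.05 (20.6% of all genes). Eif3a, Eif3c and Eif3e passed in RNA at day 13 (3 of 7, median 0.40). Over all genes tested, 14.7% and 12.4% were called in footprints at days 9 and 13 (medians 0.02 and 0.02) and 5.67% and 16.0% in RNA (medians -0.00 and -0.16). Whether the peripheral units differ from the octamer was not tested.

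Partners of eIF3 on the small ribosomal subunit, 22 genes, had no member called lower in any of these 4 comparisons. In RNA 4 of 22 rose at day 9 and 9 of 22 at day 13, and in footprints 6 of 22 at day 9 and 2 of 22 at day 13, with medians of 0.24, 0.42, 0.29 and 0.40. The shares of all genes called higher in these comparisons were 2.48%, 6.09%, 6.84% and 6.13%, and the day 13 footprint count lies near that share. Eif5, the GTPase activator of the start codon complex, and Eif4g2, a relative of the scaffold eIF4G that does not bind the cap-binding factor eIF4E, rose in all 4. In day 13 footprints they changed by 1.18 (SE 0.22) and 1.55 (SE 0.17), beside the 1.40 of Eif3i and the 1.15 of Eif3g. Abce1, the ribosome recycling factor, rose in RNA at both times, and Eif1, which guards start codon choice, rose in day 9 footprints by 0.79 (SE 0.13). Eif1 and Eif1b, and Eif1a and Eif1ax, are close paralogs whose values are uncertain where reads are shared.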

How the data were processed

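RNA and ribosome footprints were measured in 20 libraries from 10 mouse livers. The authors deposited expected counts per gene symbol, of which 44.3% of nonzero values are not whole (tolerance 0.001). cutadapt, Bowtie and Bowtie2 are named per the submitters' processing notes, with no role. Which build and which counting rule were used is not given in the sources used here. Counts were rounded, Eif3j1 and Eif3j2 being summed first. Samples were grouped by siRNA, day and assay from the labels. Each assay was fitted over its 4 groups, and efficiency as an interaction over 20 libraries, with edgeR 4.0.16 in R 4.3.3 (filterByExpr, TMM within an assay, robust quasi-likelihood F test, two-sided, Benjamini-Hochberg over all 16443, 12212 or 14235 genes tested, threshold 0.05). The days share 1 estimate of spread. The SE is the log2 change divided by the square root of F. Ratios per animal add 0.5 CPM. An exact test of 3 against 3 animals cannot go below p = 0.1.

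The 6 members, the octamer, the 22 partners and the marker lists were chosen with earlier results of these data known. One marker list is not reported here. All members, octamer subunits and called partners may be named, with the 5 genes most alike in each assay by Pearson r, and 3 symbols that are no proper gene names were passed over. Animal codes in the titles pair the RNA and footprints of a liver, and their deviations from the group means had r from 0.115 to 0.474 over 9032 genes, where the 2 animals of a day 13 group share 1 value by construction. Replicates had r between 0.968 and 0.995. Alternatives were other scalings and filters, DESeq2 1.42.0, limma 3.58.1 on log ratios, each day alone, a replicate block, separate j rows and each library left out, where an animal left alone in its group is taken to vary as the others do. Simulated counts with known changes were used to test the fits, in which RNA recovered 78% and 38% of 2-fold changes at days 9 and 13, footprints 66.0% and 39.2%, and efficiency 33% and 12%, for the changes within a day. The simulated fits called 190 and 125 genes in RNA, 168 and 119 in footprints and 123 and 75 in efficiency. The data gave 932 and 2624, 1800 and 1513, and 0 and 3. An adjusted p depends on such counts, so the recovered shares do not carry over to the tests of the data. A difference between days was not simulated. Counting error and PCR duplicates cannot be told apart in such counts.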

Additional observations from a re-analysis of the deposited data

How the results depend on the processing

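With library totals alone the median log2 change of the 5 units was 0.50 and 0.76 in RNA at days 9 and 13, 0.65 and 1.03 in footprints, 0.47 for the footprint difference between days, 0.15 for day 9 efficiency and -0.0027 for control footprints between days. By its construction this scaling adds 0.13 and 0.22 to log2 changes in RNA and 0.23 and 0.32 in footprints at days 9 and 13, and the share of called genes that were higher went from 43.7% to 70.8% in day 9 RNA, from 38.1% to 59.7% in day 13 RNA, from 46.4% to 83.6% in day 9 footprints and from 49.4% to 85.1% in day 13 footprints. DESeq2 size factors gave 49.1% in day 13 RNA. Without the low-count filter the medians were 0.75 for day 13 footprints, 0.45 and 0.52 for the footprint and efficiency differences between days and 0.017 for control footprints between days. With Eif3j1 and Eif3j2 as separate rows they were 0.61, 0.31, 0.14 and -0.21. Units called in day 9 RNA went from 1 to 2 (library totals, 5 CPM minimum, DESeq2) or 3 (that day alone), in day 13 RNA from 3 to 1 (that day alone), in day 9 footprints from 3 to 5 (library totals) or 1 (no filter), in the footprint difference from 0 to 1 (no filter), and in control footprints between days from 0 to 1 (DESeq2 size factors, 5 CPM minimum) or 2 (library totals, no filter). All genes called, with the settings in the same order, went from 932 to 1242, 994, 1637 and 3441 in day 9 RNA. They went from 1800 to 2754 and 2054 in day 9 footprints and from 100 to 242 in the footprint difference. In control footprints between days they went from 1265 to 1257, 1234, 1343 and 1537.

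Control and Eif3m animals of a replicate number share only the number (r from -0.148 to 0.204). With that replicate block the units called were 0 in day 9 RNA, 1 in day 13 RNA, 1 in day 9 footprints and 3 in day 13 footprints. All genes called with the block were 678, 2333, 1591 and 1228 in the same order, against 932, 2624, 1800 and 1513 in the main fits. All genes called went from 932 to 3441 in day 9 RNA and from 2624 to 968 in day 13 RNA with each day alone.

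With 1 day 9 library left out, units called were 0 in day 9 RNA whichever library it was (1 in the main fit). All genes called then ranged from 292 to 485 (932 in the main fit). In day 9 footprints, units called ranged from 0 to 4 (3 in the main fit), with all genes called from 1129 to 2175 (1800). Where a day 13 library or animal was left out, 1 animal stood alone in its group, and calls of those fits are not counted here. The medians with 1 library or animal left out ranged from 0.30 to 0.40 and 0.32 to 0.72 in RNA, 0.38 to 0.42 and 0.68 to 0.74 in footprints, 0.012 to 0.10 and 0.083 to 0.68 in efficiency, -0.040 to 0.40, 0.36 to 0.43 and -0.031 to 0.70 in the RNA, footprint and efficiency differences and 0.0012 to 0.11 in control footprints between days.

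In all, 14 of the members' values turned sign with a library or animal left out and 9 under other settings. With 1 library or animal left out, day 13 RNA of Eif3d ranged from -0.37 to 0.59. The RNA difference ranged from -0.56 to 0.40 for Eif3d (0.40 without day 13 control replicate 1), from -0.040 to 0.24 for Eif3b and from -0.078 to 0.69 for Eif3g (the lowest values of these 2 without day 13 control replicate 2), and the Eif3b footprint difference from -0.069 to 0.26 (lowest without day 13 Eif3m replicate 2). Day 9 efficiency of Eif3g ranged from -0.095 to 0.018 (0.012 and 0.0048 without control replicate 3 and Eif3m replicate 2). Day 13 efficiency of Eif3b ranged from -0.20 to 0.26 (0.14 without control replicate 2), and its difference between days from -0.23 to 0.23 (0.096 without day 13 control replicate 2). The efficiency difference ranged from -0.046 to 0.97 for Eif3d and from -0.0048 to 0.87 for Eif3i, both lowest without day 13 control replicate 1. Among the other settings, Eif3g day 9 efficiency was 0.088 with library totals and 0.013 with the 5 CPM minimum. Eif3b day 13 efficiency was 0.16 with library totals, 0.10 without the filter and 0.064 with TMM over all libraries, and its difference between days was then 0.0073, 0.084 and 0.029. Eif3d control footprints between days were -0.0027 with library totals. The causes were not tested.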
